A study of Mus musculus with 10 samples.

Results

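The genes described here encode the enzymes that cut and cross-link extracellular matrix, and the inhibitors that restrain them. They were chosen by name, as protein-coding genes whose symbol is Mmp, Timp or Adamts followed by a digit, together with Lox and Loxl1 to Loxl4, with 1 matrix metalloproteinase gene left out by the same rule. The rule found 49 genes among the 52636 gene identifiers of the count table, of which 21819 are protein-coding: 21 matrix metalloproteinase genes, 4 Timp genes, 19 Adamts genes and 5 lysyl oxidase genes. The rule uses names and gene type only.

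Counts of reads per gene came from RNA sequencing of the inguinal white fat pad, which lies under the skin, of C57BL/6 mice aged 6 months on a 65% high-fat diet. The diet lasted 16 weeks by the diet label, while the sample descriptions give 12 weeks and the treatment protocol 4 months. All mice of both groups carried floxed alleles of Tcf7l2, whose protein is a DNA-binding partner of beta-catenin in the Wnt pathway. The 5 knockout libraries came from mice that also carried the Adp-Cre transgene, which the series title places in adipocytes, and the 5 control libraries, labelled wild type, from floxed mice without it. The tissue was sequenced whole, so cells other than adipocytes, in which this transgene is not expected to delete the gene, contribute to every value. The libraries are called control 1 to 5 and knockout 1 to 5, in the order of the records. Separate mice are not stated in words in the labels, and the p-values cover the spread among these samples, which may be partly technical.

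Matrix metalloproteinases are zinc-dependent enzymes, secreted or held at the cell membrane in a latent form, that cleave collagens, gelatin, proteoglycans and other proteins around the cell. TIMPs are small secreted proteins that block the catalytic zinc of these enzymes and, in the case of TIMP3, of several ADAM and ADAMTS proteases. ADAMTS proteases share the zinc-dependent catalytic domain and carry thrombospondin repeats that tether them to matrix. Some trim procollagens, others cut the large proteoglycans versican and aggrecan, and others act on fibrillin microfibrils. Lysyl oxidases are copper enzymes that oxidise lysines in collagen and elastin, the step that starts covalent cross-links. In fat the collagen network around each adipocyte is remodelled as the cell enlarges, and the membrane protease MMP14 is known to be needed for that remodelling.

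The promoters of 3 changed members are shown first, since the deleted gene encodes a factor that binds DNA. The 250 bases before the annotated transcript start are printed in lower case, from RefSeq on GRCm38.p6, and none carries capitals because neither motif searched was found there. They lie at chr11:50601835-50602084 (plus strand) for Adamts2, chr6:92943535-92943784 (minus strand) for Adamts9 and chr6:115252206-115252455 (minus strand) for Timp4.
Adamts2: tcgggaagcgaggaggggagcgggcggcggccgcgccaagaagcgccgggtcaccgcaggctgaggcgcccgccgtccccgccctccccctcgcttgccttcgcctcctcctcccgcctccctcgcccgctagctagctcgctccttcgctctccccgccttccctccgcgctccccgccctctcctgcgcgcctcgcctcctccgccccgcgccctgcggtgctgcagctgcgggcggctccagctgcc
Adamts9: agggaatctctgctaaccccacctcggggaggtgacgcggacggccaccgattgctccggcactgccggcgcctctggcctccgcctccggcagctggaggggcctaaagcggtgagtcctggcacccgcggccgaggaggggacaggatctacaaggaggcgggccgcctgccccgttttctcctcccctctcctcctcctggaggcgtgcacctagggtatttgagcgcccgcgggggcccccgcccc
Timp4: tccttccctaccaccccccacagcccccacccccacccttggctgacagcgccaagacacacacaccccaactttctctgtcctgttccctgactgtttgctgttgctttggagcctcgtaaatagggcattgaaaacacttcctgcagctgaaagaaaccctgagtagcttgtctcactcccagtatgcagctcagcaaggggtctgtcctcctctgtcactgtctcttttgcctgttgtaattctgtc

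The windows searched ran from 250 bases before to 50 bases after the start. A window was at hand for 31 of the 49 genes, 33 windows in all, and Adamts10 had none. The TCF/LEF core was searched as CTTTGAT on both strands, and Mmp7 was the only one of the 31 genes with a match. Of 32851 such windows of the whole RefSeq table, 3.73% held it. The windows of Adamts2, Adamts9 and Timp4 did not hold these letters, which says nothing of sites elsewhere.

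The second motif searched was TGANTCA, the site of AP-1 factors, which is known from the promoters of inducible matrix metalloproteinases. It was found in 6 of the 31 genes and in 7.81% of all windows, and it reads the same pattern on both strands. All 6 are matrix metalloproteinase genes lying near one another on chromosome 9, so they need not be independent cases. They are shown because these members share a sequence feature that the rule did not use. Capitals mark the motif.
Mmp3: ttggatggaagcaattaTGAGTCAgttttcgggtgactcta
Mmp10: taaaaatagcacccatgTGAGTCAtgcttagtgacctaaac
Mmp13: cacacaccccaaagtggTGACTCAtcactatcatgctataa
Mmp1b: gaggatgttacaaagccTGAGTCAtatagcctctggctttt
Mmp20: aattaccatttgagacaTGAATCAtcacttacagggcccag
Mmp7: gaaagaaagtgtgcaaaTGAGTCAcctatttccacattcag
Counted from the transcript start, the motif begins at base -46 in Mmp3, -63 in Mmp10, -35 in Mmp13, -93 in Mmp1b, -95 in Mmp20 and -63 in Mmp7. The stretches lie at chr9:7445759-7445799, chr9:7502262-7502302, chr9:7272462-7272502, chr9:7628119-7628159 and chr9:7692010-7692050 on the plus strand and chr9:7388096-7388136 on the minus strand. Among carriers of the motif only Mmp3 was high, among the highest of all members. The highest counts in any library were 38 for Mmp13, 6 for Mmp10, 2 for Mmp7 and Mmp1b and 1 for Mmp20.

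Total counts ran from 14032866 to 17782073 per library with no separation by genotype (exact permutation test of the totals, p = 0.944). Values per library are CPM, read counts scaled to a common library size with TMM factors. A floor of 3 counts in a library corresponded to between 0.172 and 0.205 CPM; this covers counting error alone, because the labels describe no molecular identifiers and PCR copies are not separate molecules. Tcf7l2 stood at 11.1, 10.5, 9.16, 11.4 and 11.1 CPM across controls 1 to 5, against 5.57, 6.14, 6.20, 5.58 and 5.68 CPM across knockouts 1 to 5, and each library matched its label (exact permutation p = 0.0079, the smallest value the 252 splits allow). On the first principal component, which held 49.0% of the variance of the 500 most variable genes, control 5 lay at 5.99 among the knockouts (3.96 to 35.6), away from the other controls (-22.7 to -12.0), and knockout 1 lay at the far end. Library numbers ran from 1 to 5 in controls and 6 to 10 in knockouts, so genotype cannot be told apart from any handling that followed this order.

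Of the 49 members, 35 passed the filter on low counts and were tested: 12 metalloproteinase genes, all 4 Timp genes, 14 Adamts genes and all 5 lysyl oxidase genes. In the knockout, Adamts2, a procollagen-trimming enzyme, was higher, and the inhibitor gene Timp4 and the proteases Adamts9 and Adamts10 were lower. The other 31 did not pass. A change was called at an adjusted p below 0.05 in edgeR's quasi-likelihood test, with the Benjamini-Hochberg adjustment taken over the 15927 genes in the test. Across all tested genes 12.9% were called, 5.84% higher and 7.05% lower, against 11.4% of the tested members. At this threshold the members were called about as often as any gene, a comparison that rests on 4 calls. At an unadjusted p below 0.05 there were 6 of the 35 members, a smaller share than the 31.0% of all tested genes. The median log2 fold change of the 35 tested members was -0.0027, beside 2.0e-04 for all tested genes.

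The 14 untested members were near the floor. Their highest count in any library was 16 for Mmp25, a membrane-anchored protease, 15 for Adamts8, 14 for Adamts18, 12 for Mmp8, the neutrophil collagenase, 10 for Mmp21, 10 for Adamts20 and 8 for Mmp24. The remaining 7 were Mmp10, Mmp16, Adamts13 and Adamts19 at 6 counts, Mmp7 and Mmp1b at 2 and Mmp20, the enamel protease, at 1. With no low-count filter all 49 members were tested in edgeR, 10 had an unadjusted p below 0.05, and the same 4 were called, so none of these 14 was.

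Per length of exon, the highest transcripts of the set were the cross-linking enzyme Lox, the inhibitor Timp2 and the proteases Mmp3 and Mmp2. As levels in CPM per kb of exon, Lox stood at 74.0 ± 16.3 for controls and 74.4 ± 6.81 for knockouts, where ± is the SD over n = 5 libraries here and below. Timp2 stood at 73.2 ± 9.88 and 66.5 ± 4.70, Mmp3 at 63.8 ± 8.65 and 70.5 ± 5.67, and Mmp2 at 62.2 ± 3.67 and 63.2 ± 6.70. In both groups the mean ± SD ranges of neighbours among these 4 overlapped. Adamts5, which cuts proteoglycans, followed below Mmp2 by more than the SDs of both, at 46.3 ± 6.95 and 45.7 ± 2.59, then Timp3 at 40.8 ± 6.73 and 32.1 ± 5.51. The tested members reached down to Adamts17 at 0.134 and 0.0948 CPM per kb.

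**Figure D1:**
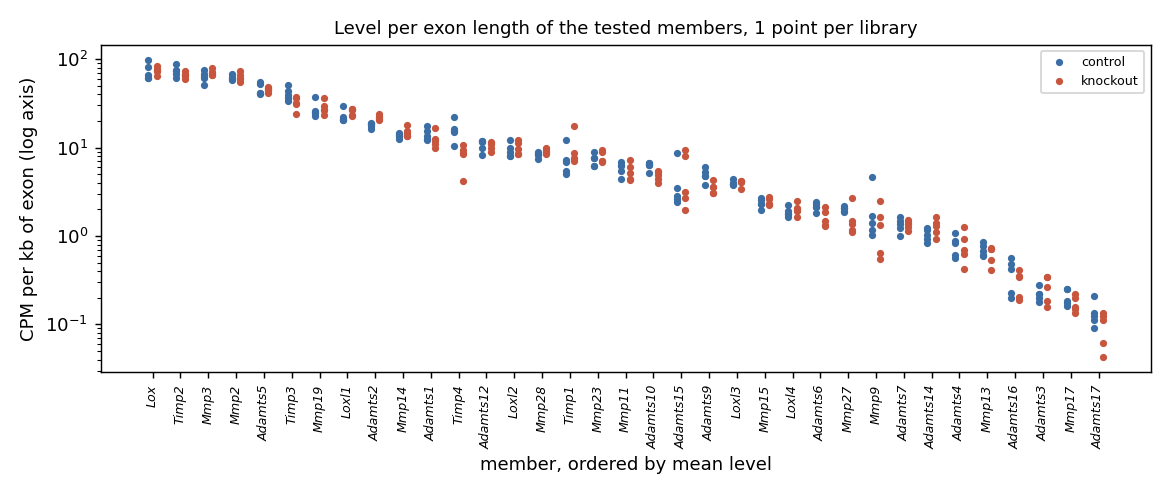
Level of the 35 tested members in CPM per kb of exon on a log axis, ordered by mean level, with 1 point per library (control blue, knockout red). Lox, Timp2, Mmp3 and Mmp2 lie at the top near 70 CPM per kb, and the groups overlap for nearly all members, with Adamts15 and Mmp9 spread widest within a group.

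Timp4 was the only one of the 4 inhibitors to pass. It is an inhibitor of several metalloproteinases whose expression is known to be enriched in heart and fat. The gene (ENSMUSG00000030317) lies on GRCm38 chromosome 6, 115241892 to 115252205, minus strand. Its level was 91.8, 96.8, 130.8, 87.8 and 62.1 CPM across controls 1 to 5, against 24.8, 55.4, 50.1, 62.5 and 51.8 CPM across knockouts 1 to 5. Knockout 1 was the lowest library of all, and control 5, the lowest control, lay just under the highest knockout, so the ranges touched. Timp4 fell to 52.1% of the control level, from 93.9 ± 24.6 to 48.9 ± 14.3 CPM, a log2 fold change of -0.94 (SE 0.22, edgeR adjusted p = 0.0219). The call was lost without control 1 (adjusted p = 0.0557) or control 2 (adjusted p = 0.0592).

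Timp1, Timp3 and Timp4 each lie inside a gene of the synapsin family, whose members encode proteins of synaptic vesicles. Timp4 lies within Syn2 on the opposite strand, and Syn2 exons cover 1.53% of its exonic bases. Syn2 stood at 13.5, 9.81, 13.8, 11.1 and 14.1 CPM across controls 1 to 5, against 9.82, 8.09, 7.32, 8.89 and 7.87 CPM across knockouts 1 to 5. Its log2 fold change was -0.57 (SE 0.12, edgeR adjusted p = 0.0166), so the host gene was lower too. Timp3 lies within Syn3, whose exons cover 21.3% of its exonic bases, and Timp1 within Syn1 with no shared exonic base. Whether the counting used strand is not stated in the labels. Syn3 had between 14 and 42 counts in a library, while Timp3 had between 3362 and 6773. The log2 fold change of Syn3 was -0.54 (SE 0.23, edgeR adjusted p = 0.123) and that of Syn1 -0.25 (SE 0.36, edgeR adjusted p = 0.674), and neither passed.

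Timp3, the matrix-bound inhibitor, stood at 318, 352, 416, 276 and 298 CPM across controls 1 to 5, against 193, 259, 296, 307 and 251 CPM across knockouts 1 to 5. The groups overlapped, and the log2 fold change of -0.35 did not pass (SE 0.13, edgeR adjusted p = 0.0956). Timp2, the most abundant inhibitor per length, gave 294, 286, 239, 264 and 343 CPM across controls 1 to 5, against 253, 259, 264, 285 and 235 CPM across knockouts 1 to 5. Controls 1, 2 and 5 lay above all knockouts and controls 3 and 4 among them, and the log2 fold change was -0.14 (SE 0.090, edgeR adjusted p = 0.318). Timp1, the inducible inhibitor, gave 6.07, 4.77, 4.49, 6.42 and 10.9 CPM in the controls and 15.5, 6.69, 6.33, 7.70 and 6.64 CPM in the knockouts. The highest value of each group was that of control 5 and of knockout 1. The log2 fold change was 0.39 (edgeR adjusted p = 0.379), and 0.069 without knockout 1.

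Per length, Timp2 made up 53.3 ± 5.79% of the summed Timp level in the controls and 57.1 ± 1.19% in the knockouts. Timp4 made up 11.7 ± 3.10% and 7.08 ± 1.89%. The summed Timp level ran from 124 to 147 CPM per kb in the controls and from 107 to 130 in the knockouts, while the summed level of the metalloproteinases ran from 183 to 225 and from 192 to 221. Both pairs of ranges overlapped, and these sums were not tested.

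Adamts2 was the one member higher in the knockout and the only member whose groups did not overlap, as 8.99% of all tested genes did not. It removes the amino-terminal propeptide of fibrillar procollagens. The gene (ENSMUSG00000036545) lies on chromosome 11, 50602084 to 50807573, plus strand. Its level was 171, 153, 162, 174.5 and 176 CPM across controls 1 to 5, against 193, 223, 205, 209 and 194 CPM across knockouts 1 to 5. Every knockout library lay above every control library. The mean rose from 167 ± 9.70 to 205 ± 12.5 CPM, a log2 fold change of 0.29 (SE 0.062, edgeR adjusted p = 0.0157), and the call held in all 10 fits that left out 1 library (adjusted p up to 0.0475). Its relatives in procollagen trimming did not pass, with Adamts14 at 5.39 ± 0.838 and 6.62 ± 1.45 CPM (log2 fold change 0.30, edgeR adjusted p = 0.241) and Adamts3 at 1.20 ± 0.204 and 1.40 ± 0.473 CPM (0.23, edgeR adjusted p = 0.569).

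Adamts9, which cleaves versican and aggrecan, was lower. The gene (ENSMUSG00000030022) lies on chromosome 6, 92772699 to 92943492, minus strand. By library it stood at 91.1, 72.3, 71.4, 79.4 and 56.1 CPM across controls 1 to 5, against 54.4, 65.4, 53.6, 46.1 and 46.7 CPM across knockouts 1 to 5. The ranges overlapped through control 5 alone, which lay below knockout 2. The mean fell from 74.0 ± 12.8 to 53.2 ± 7.77 CPM, a log2 difference of -0.48 (SE 0.12, edgeR adjusted p = 0.0288). The call was lost in each fit lacking control 1, control 2, control 4, knockout 3, knockout 4 or knockout 5 (adjusted p up to 0.0791). Genes on the opposite strand cover 12.0% of its exonic bases, and their counts of at most 73 in a library compare with 682 to 1531 for Adamts9.

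Adamts10, which binds fibrillin and takes part in microfibril assembly, was lower as well. The gene (ENSMUSG00000024299) lies on chromosome 17, 33524204 to 33553782, plus strand. It gave 52.7, 55.0, 52.2, 55.2 and 43.0 CPM across controls 1 to 5, against 44.0, 36.8, 40.7, 45.1 and 32.9 CPM across knockouts 1 to 5. Controls 1 to 4 lay above all knockouts, and control 5 lay among them. The mean fell from 51.6 ± 5.01 to 39.9 ± 5.11 CPM, a log2 difference of -0.37 (SE 0.095, edgeR adjusted p = 0.0274), a call lost without control 1, 2 or 4 or knockout 2 or 5 (adjusted p up to 0.0768). Adamts6, its closest relative, stood at 16.8 ± 1.66 and 12.7 ± 2.91 CPM and missed the threshold (-0.41, edgeR adjusted p = 0.0717). It passed without knockout 1 (-0.52, edgeR adjusted p = 0.0172).

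**Figure D2:**
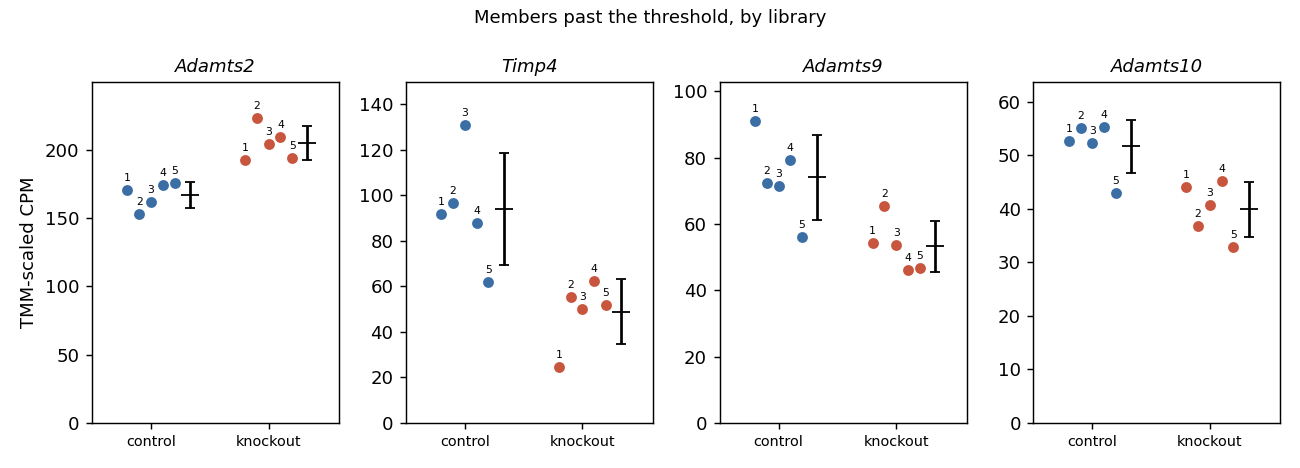
Level of the 4 called members by library, in TMM-scaled CPM from 0, with controls in blue, knockouts in red, library numbers above the points and bars for the mean ± SD of 5 libraries. Adamts2 lies higher in all 5 knockouts, while Timp4, Adamts9 and Adamts10 are lower with control 5 near or within the knockout range.

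The number of called members moved with single libraries. With 1 higher and 3 lower in the whole set, the lower count was 0 without control 1 or control 2, 1 without control 4 or knockout 5, 2 without knockout 2 or knockout 3, and 4 without knockout 1, and the higher count was 2 without control 5. The count over all genes moved in the same fits, from 2053 with all libraries. It was 560 and 537 when control 1 or control 2 was dropped, 903 and 885 for control 4 and knockout 5, and 998 and 1482 for knockout 2 and knockout 3. Dropping knockout 1 gave 2273 and dropping control 5 gave 3094. Without control 5 and knockout 1 together 6 members passed, the same 4 with Adamts6 and Loxl1, where 23.6% of all genes passed. DESeq2 and limma-voom with quality weights each called the same 4 and Adamts6, against 16.8% and 22.6% of all genes.

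A score of 789 transcripts annotated as intronic, sense-overlapping or unconfirmed, the mean of their log2 CPM, was 1.08, 1.28, 0.729, 1.20 and 0.385 across controls 1 to 5, against 0.445, 0.223, 0.467, 0.368 and 0.0606 across knockouts 1 to 5 (exact permutation p = 0.024). With this score added to the edgeR model, which was done after seeing the data, 0 of the 35 members passed and 4 had an unadjusted p below 0.05, while 0.308% of all genes passed, and the log2 fold changes were 0.24 for Adamts2, -0.90 for Timp4, -0.18 for Adamts9 and -0.08 for Adamts10. Of 8 endothelial markers, 7 were lower and 0 higher, where 7.05% of all tested genes were lower. Their summed level was 911 to 1133 CPM in the controls and 735 to 848 CPM in the knockouts. The count of lower endothelial markers was 3 without control 1 or knockout 5, 4 without control 2, and 0 with the intronic-type score in the model. The part of the endothelial markers in the 4 calls was not tested, and in whole tissue fewer cells of a type and less RNA per cell cannot be told apart.

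Markers of the other cell types were summed in the same way. The 6 adipocyte markers summed to between 18300 and 23710 CPM in the controls and 19790 and 27460 CPM in the knockouts, so the labelled tissue showed its defining markers. The 8 macrophage markers summed to 1193 to 1433 and 1146 to 1315 CPM, with 0 called and 0 at an unadjusted p below 0.05 in edgeR, and 0 called by DESeq2 or limma-voom. Of 8 fibroblast or progenitor markers 1 was lower, Dpt, and 7 did not pass, Pdgfra and Dcn among them (summed level 3870 to 4521 and 3412 to 3852 CPM). Within that sum Dpt went from 1436 to 962 CPM. Of the 8 log2 fold changes 7 were negative, and that of Col15a1 was positive (0.21, edgeR adjusted p = 0.106). Of 6 T cell markers 3 were higher and of 5 B cell markers 4 (DESeq2 called 4 and 1, limma-voom 2 and 0), with knockout 1 at 81.0 and 286 CPM in sum against at most 23.8 and 31.7 CPM in the other libraries. Both counts were 0 without control 1, control 2 or control 4. The T cell count was 1 without control 3 and 5 without knockout 2, and the B cell count 1 without knockout 5 and 2 without control 3, control 5 or knockout 1. The 6 skeletal muscle markers summed to 480 CPM in control 5, 624 in knockout 1 and 499 in knockout 3, and to at most 97.5 CPM elsewhere. The 6 epithelial markers summed to at most 1.67 CPM, and 3 of 5 tested Schwann cell markers were lower (66.9 to 88.4 and 47.4 to 65.1 CPM), and 1 was without control 1, control 2, control 4 or knockout 5. Among 6 mural cell markers edgeR called 0, with 3 at an unadjusted p below 0.05, while DESeq2 and limma-voom each called 2 (789 to 1056 and 756 to 904 CPM), as edgeR did without control 5. The 6 mast cell markers summed to 98.6 to 185 and 115 to 143 CPM. The part of these cell types in the members' values was not tested.

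None of the 12 tested metalloproteinase genes passed in edgeR, where 0 reached an unadjusted p below 0.05, and 0 were called by DESeq2 or limma-voom. Over all tested genes 12.9% passed in edgeR, 16.8% in DESeq2 and 22.6% in limma-voom, and 31.0% reached an unadjusted p below 0.05 in edgeR. Without knockout 4, Mmp27 was called lower. Mmp3, stromelysin-1, the highest of them per length, gave 121, 92.8, 110, 115 and 135 CPM across controls 1 to 5, against 144, 121, 118, 128 and 124 CPM across knockouts 1 to 5. The groups overlapped, with a log2 fold change of 0.15 (SE 0.091, edgeR adjusted p = 0.298) and an unadjusted 95% interval of -0.065 to 0.36. Mmp2, gelatinase A, gave 208, 214, 197, 201 and 228 CPM across controls 1 to 5, against 207, 202, 223, 246 and 187 CPM across knockouts 1 to 5. For this gene the interval of the log2 fold change was -0.15 to 0.20 around 0.023, and the control range lay inside the knockout range.

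Mmp14, the membrane protease that activates pro-MMP2, stood at 82.0 ± 4.89 CPM in the controls and 89.4 ± 10.5 CPM in the knockouts (log2 fold change 0.13, interval -0.056 to 0.31). Mmp28, epilysin, had the smallest p of the family. It gave 33.5, 28.8, 31.7, 32.9 and 34.6 CPM across controls 1 to 5, against 37.1, 38.7, 35.2, 32.5 and 34.1 CPM across knockouts 1 to 5 (log2 fold change 0.14, SE 0.068, edgeR adjusted p = 0.194). Knockouts 1, 2 and 3 lay above all controls, and knockouts 4 and 5 lay among them. Mmp19 was at 95.8 ± 20.7 and 100.9 ± 17.4 CPM, and Mmp11, stromelysin-3, at 16.3 ± 2.67 and 14.96 ± 3.34 CPM. The membrane-type relatives of Mmp14 did not pass, with Mmp15 at 12.7 ± 1.49 and 13.2 ± 1.27 CPM and Mmp17 at 1.35 ± 0.290 and 1.14 ± 0.241 CPM. Mmp23 stood at 17.0 ± 2.65 and 18.5 ± 2.89 CPM.

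The collagenase Mmp13 was near the lower limit of the test, at 1.87 ± 0.283 and 1.67 ± 0.390 CPM (18 to 38 counts). Mmp27 was at 4.46 ± 0.275 and 3.45 ± 1.42 CPM, with knockout 4 at 5.91 CPM above all controls and the other knockouts between 2.43 and 3.29 CPM, below them. Without knockout 4 its log2 fold change was -0.65 (edgeR adjusted p = 0.0251), against -0.37 (edgeR adjusted p = 0.266) with all libraries. By share of the summed metalloproteinase level per length, Mmp3 held 32.4 ± 2.40% in the controls and 34.2 ± 1.84% in the knockouts, Mmp2 31.8 ± 1.73% and 30.6 ± 2.44%, and Mmp19 13.7 ± 1.85% and 13.8 ± 2.12%. The same 3 genes led the sum in both groups.

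Adamts5, the main proteoglycan-cutting member by level, gave 439, 450.0, 447, 569 and 593 CPM across controls 1 to 5, against 496, 513, 485, 522 and 450.5 CPM across knockouts 1 to 5. Controls 4 and 5 were the highest libraries and the knockouts lay between the controls (log2 fold change -0.019, SE 0.095, edgeR adjusted p = 0.917). Per length it made up 41.7 ± 2.33% of the summed Adamts level in the controls and 41.8 ± 1.88% in the knockouts. Adamts2 held 16.2 ± 0.969% and 20.1 ± 1.46% of that sum. Adamts1, another proteoglycan-cutting enzyme, was at 75.5 ± 12.0 and 65.5 ± 13.5 CPM (log2 fold change -0.21, edgeR adjusted p = 0.319), and Adamts4 at 3.81 ± 1.02 and 3.78 ± 1.53 CPM.

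Adamts12 and Adamts7, which cleave cartilage oligomeric matrix protein, were at 116.7 ± 16.8 and 114.1 ± 11.9 CPM and at 8.44 ± 1.51 and 8.39 ± 0.953 CPM. Their log2 fold changes of -0.033 and -0.0092 did not pass (edgeR adjusted p = 0.859 and 0.971). Adamts16 stood at 2.58 ± 1.08 and 2.06 ± 0.668 CPM, and Adamts17, which is also linked to fibrillin microfibrils, at 1.04 ± 0.342 and 0.736 ± 0.313 CPM (log2 fold change -0.48, edgeR adjusted p = 0.343). Of the 14 tested Adamts genes 10 had a negative and 4 a positive log2 fold change, with a median of -0.026, where 50% of all tested genes were negative. Among the negative values, those of Adamts4, Adamts5, Adamts7 and Adamts12 lay between -0.033 and -0.0027 and turned sign in other fits.

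None of the 5 lysyl oxidase genes passed in edgeR, where 0 reached an unadjusted p below 0.05, and 0 were called by DESeq2 or limma-voom. Over all tested genes 12.9% passed in edgeR and 31.0% reached an unadjusted p below 0.05, shares that 5 genes are too few to compare with. Lox gave 293, 294, 388, 319 and 474 CPM across controls 1 to 5, against 366, 352, 307, 355 and 397 CPM across knockouts 1 to 5. Control 5 was the highest library and the knockouts lay within the control range (log2 fold change 0.0078, interval -0.29 to 0.30, SE 0.13, edgeR adjusted p = 0.974). Loxl1, which acts mainly on elastin, gave 67.6, 69.0, 72.7, 68.1 and 96.7 CPM across controls 1 to 5, against 91.0, 88.6, 74.1, 89.2 and 76.4 CPM across knockouts 1 to 5. Controls 1 to 4 lay below all knockouts and control 5 above them, with a log2 fold change of 0.16 (SE 0.10, edgeR adjusted p = 0.294). Without control 5 it was 0.28 (edgeR adjusted p = 0.0214), and Loxl1 was then called higher.

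Loxl2 stood at 51.1 ± 9.22 and 54.1 ± 9.07 CPM, Loxl3 at 18.3 ± 1.24 and 18.3 ± 1.63 CPM, and Loxl4 at 7.86 ± 0.941 and 8.44 ± 1.26 CPM. Their log2 fold changes were 0.083, -0.0026 and 0.10 (edgeR adjusted p of 0.700, 0.986 and 0.608). Per length, Lox made up 65.8 ± 2.85% of the lysyl oxidase sum in the controls and 64.2 ± 2.94% in the knockouts, and Loxl1 20.4 ± 1.02% and 22.0 ± 1.52%.

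**Figure D3:**
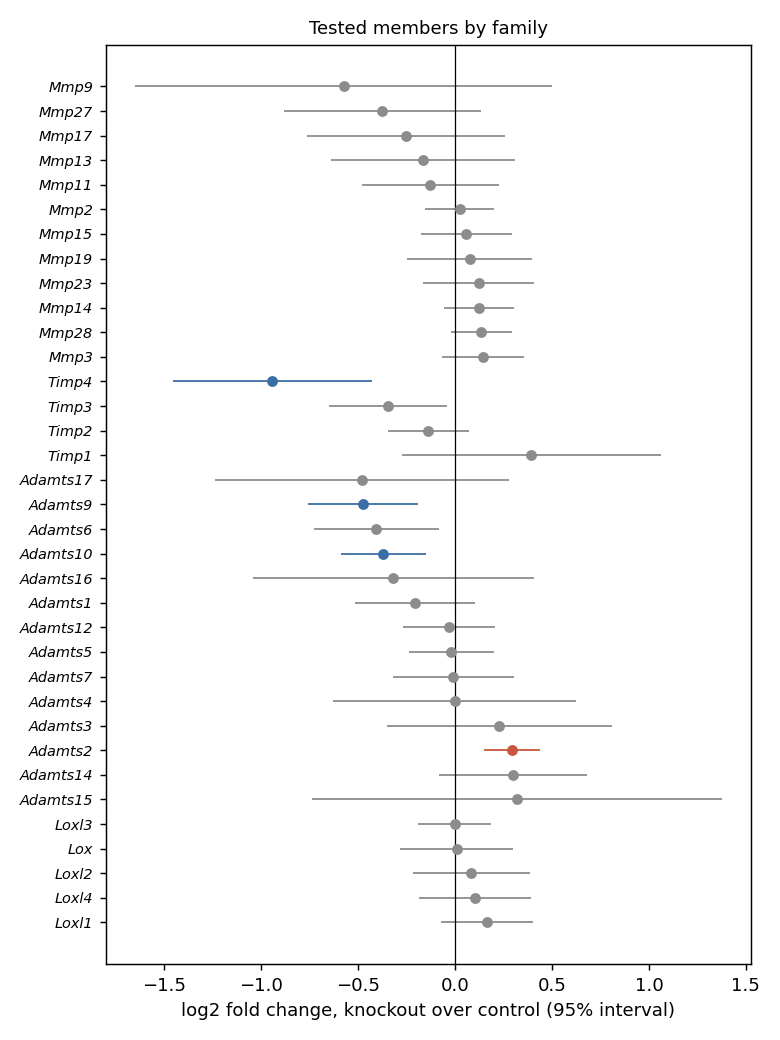
Log2 fold change of the 35 tested members, knockout over control, with unadjusted 95% intervals, grouped by family and coloured where called (red higher, blue lower). Timp4 at -0.94 lies farthest from 0, Adamts2 is the called rise at 0.29, and the intervals of all 12 metalloproteinase and 5 lysyl oxidase genes include 0.

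Several members varied more between libraries of a group than between the groups. Adamts15, a proteoglycan-cutting enzyme, gave 27.1, 25.1, 35.9, 29.6 and 91.0 CPM across controls 1 to 5, against 97.2, 82.4, 27.6, 32.5 and 20.1 CPM across knockouts 1 to 5. Control 5 and knockouts 1 and 2 stood between 82.4 and 97.2 CPM and the other 7 libraries between 20.1 and 35.9 CPM. The log2 fold change was 0.32 (SE 0.46, edgeR adjusted p = 0.673), 0.83 without control 5 and -0.031 without knockout 1.

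Mmp9, gelatinase B, which neutrophils and macrophages are known to make, gave 6.01, 4.14, 3.63, 5.002 and 16.5 CPM across controls 1 to 5, against 8.85, 5.84, 4.68, 1.92 and 2.26 CPM across knockouts 1 to 5. Control 5 was the highest library and knockout 1 followed, and these values rest on 29 to 281 counts. Its log2 fold change was -0.58 (SE 0.47, edgeR adjusted p = 0.425) and 0.017 without control 5. The summed level of 8 neutrophil markers was 33.3 CPM in control 5 and 41.7 CPM in knockout 1, and between 16.8 and 26.8 CPM in the other libraries. Only 3 of these markers passed the filter on low counts, S100a8, S100a9 and Csf3r. Their log2 fold changes were 0.43 (edgeR adjusted p = 0.0517), 0.37 (edgeR adjusted p = 0.701) and -0.020 (edgeR adjusted p = 0.970). EdgeR called 0 of the 3, while DESeq2 and limma-voom each called 1 higher. The 8 macrophage markers summed to 1433 CPM in control 5, the highest library, and to 1146 CPM in knockout 1, the lowest. The part of these cell types in the Mmp9 values was not tested.

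**Figure D4:**
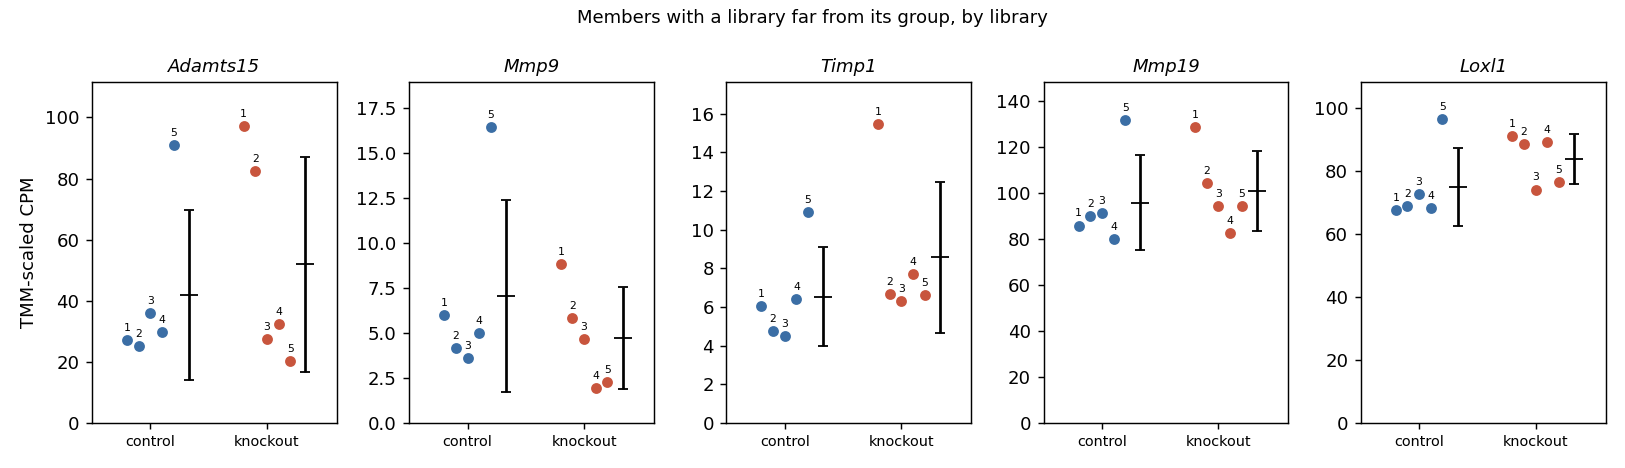
Level of 5 members in which a library stood far from its group, in TMM-scaled CPM from 0, with controls in blue, knockouts in red, library numbers above the points and bars for the mean ± SD of 5 libraries. Control 5 is the highest control in Adamts15, Mmp9, Timp1, Mmp19 and Loxl1, and knockout 1 the highest knockout.

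Among the 35 tested members, control 5 held the highest value for 9, where 9.26% of all tested genes peaked in that library. Knockout 1, knockout 2 and knockout 4 each held the highest value for 5 members, where 17.1%, 8.19% and 6.52% of all tested genes peaked. Knockout 5 held the highest value for 0 members, where 16.1% of all tested genes peaked. It held the lowest value for 9 members, a count for which the share over all genes was not computed. The spread between the highest and the lowest library was smallest for Mmp2, at 1.32-fold. It was 8.56-fold for Mmp9, 5.28-fold for Timp4, 4.87-fold for Adamts17, which had 5 to 27 counts, and 4.83-fold for Adamts15.

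**Figure D5:**
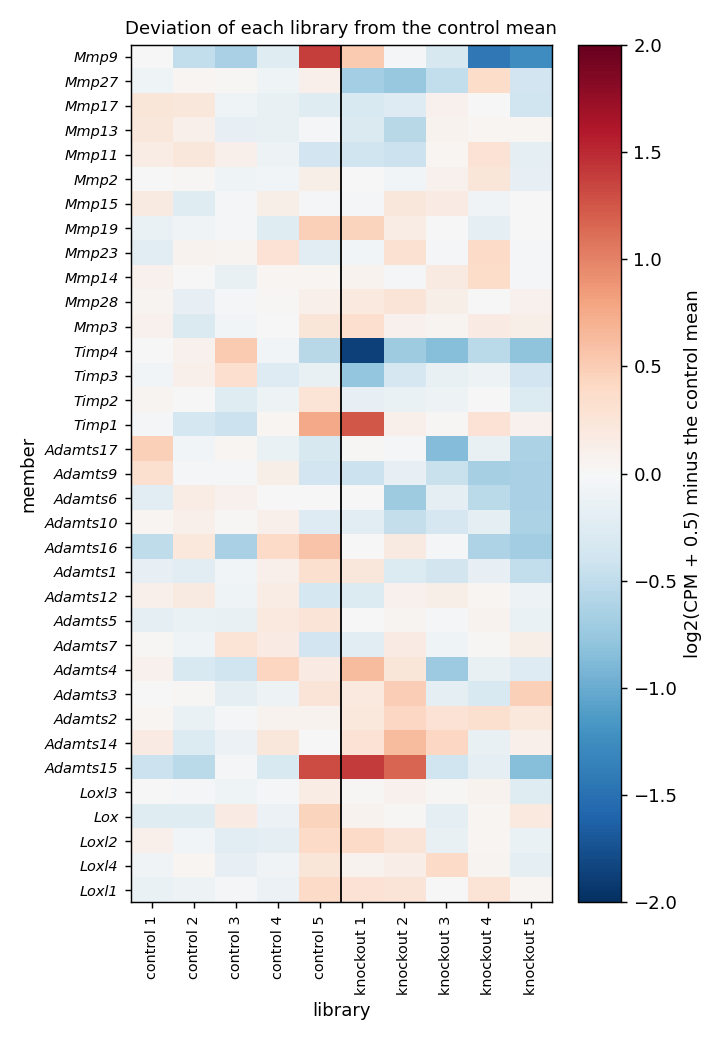
Deviation of each library from the control mean, as log2(CPM + 0.5), for the 35 tested members grouped by family, with a line between controls and knockouts. Timp4 is low in all 5 knockouts and in control 5, Adamts2 is raised in the knockouts, and Adamts15 is high in control 5, knockout 1 and knockout 2.

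Lists of related genes were set beside the members. Over all tested genes 12.9% were called, 5.84% higher and 7.05% lower. Of 17 tested genes for procollagen processing and collagen cross-linking, 2 were higher, 2 lower and 13 did not pass (median log2 fold change 0.035). Pcolce2, which enhances the cleavage of the carboxy-terminal propeptide of procollagen, rose from 242 ± 13.8 to 489 ± 91.4 CPM (1.01, SE 0.11, edgeR adjusted p = 6.1e-04). Ppib, a prolyl isomerase that assists collagen folding, rose from 63.9 to 82.5 CPM (0.37, edgeR adjusted p = 0.0159). Plod2, which hydroxylates the lysines that lysyl oxidases later oxidise, fell from 33.01 ± 4.62 to 21.3 ± 2.45 CPM (-0.64, SE 0.11, edgeR adjusted p = 0.0057). Tll1, a protease that removes carboxy-terminal propeptides, fell from 8.83 to 5.49 CPM (-0.68, edgeR adjusted p = 0.0107). All 4 passed in each fit that left out 1 library, and when the intronic-type score entered the model Plod2 passed (-0.91, edgeR adjusted p = 0.0102) and Pcolce2 (1.00, edgeR adjusted p = 0.0531), Ppib (0.23, edgeR adjusted p = 0.506) and Tll1 (-0.46, edgeR adjusted p = 0.422) did not.

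Of 28 tested matrix substrates 1 was higher, 1 was lower and 26 did not pass (median -0.0081). The higher one, the collagen chain gene Col6a2 (0.32, edgeR adjusted p = 0.0493), was lost in 8 of the 10 fits that left out 1 library, among them each fit without one of controls 1 to 4. The lower one was Comp, for cartilage oligomeric matrix protein, at 8.27 ± 1.11 and 4.78 ± 1.38 CPM (-0.79, edgeR adjusted p = 0.0191). With the intronic-type score in the model Col6a2 (0.25, edgeR adjusted p = 0.599) and Comp (-0.69, edgeR adjusted p = 0.41) did not pass. The fibrillar collagen genes Col1a1 and Col3a1 were at log2 fold changes of 0.21 and 0.047 and versican, Vcan, at -0.21, and these did not pass.

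Among 17 tested ADAM and ADAMTS-like genes 2 were higher, 0 lower and 15 did not pass (median -0.041). Adam12 rose from 99.7 ± 8.76 to 138 ± 21.1 CPM (0.47, edgeR adjusted p = 0.0165) and Adam23 from 74.9 ± 6.64 to 99.1 ± 11.3 CPM (0.40, edgeR adjusted p = 0.0160). With the intronic-type score in the model Adam12 (0.56, edgeR adjusted p = 0.306) and Adam23 (0.35, edgeR adjusted p = 0.411) did not pass. Adam12 is a shedding protease, and Adam23 is known as a non-proteolytic adhesion protein. The higher count was 3 without control 5, and 1 was lower without control 3, control 5 or knockout 1. Of 19 genes of the plasminogen system, cathepsins and their inhibitors, 0 passed in edgeR, where 1 reached an unadjusted p below 0.05, and 0 were called by DESeq2 or limma-voom (median 0.033), with 1 higher without control 5.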

How the data were processed

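The authors deposited 1 table of raw counts of reads per gene, whole numbers with no normalization, for all 10 libraries. Per the labels' protocols, total RNA was depleted of ribosomal RNA and prepared with a stranded kit. Per the submitters' processing notes, the tools included STAR 2.5.2b, featureCounts 1.5.1 and DESeq2 1.16.0, with GRCm38 as the build. Not given in the sources used here are the annotation, the strand setting and the multi-mapping rule of the counting. Libraries were grouped by the genotype label (5 and 5). Symbols and positions came from GENCODE release M21 (52403 of 52636 identifiers matched).

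Genes were filtered with filterByExpr by group (15927 kept), scaled with TMM factors and compared by genotype alone in edgeR 4.0.16 (R 4.3.3), by its quasi-likelihood test, which is two-sided. SEs are the log2 fold change divided by the square root of its F statistic, and intervals use 8 degrees of freedom. DESeq2 1.42.0, limma-voom 3.58.1, other scalings and filters, robust dispersion and leaving out libraries were alternatives. The intronic-type covariate was added after seeing the data. The fit was tested on simulated data. No pair of libraries within a group looked like 1 library deposited again (chi-square per degree of freedom 6.57 to 26.2 over 20 pairs). The members and lists were chosen with earlier results of these data known. The rule for named genes took each called member and, per family, the tested member of highest level per length and of smallest p, with values for every other tested member. Depth was 14032866 to 17782073 counts per library.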

Additional observations from a re-analysis of the deposited data

Results flagged for a closer look

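In 8 of 72 groups of 5 libraries (35 tested members and Tcf7l2 in each group), 1 library stood apart from the others by a gap above Dixon's 95% critical value of 0.710 times the range, where chance flags about 5% of groups. Control 5 accounted for 5 of them. Adamts15 was at 91.0 CPM in control 5 against 25.1 to 35.9 in the other controls, Mmp9 at 16.5 against 3.63 to 6.01, Loxl1 at 96.7 against 67.6 to 72.7, and Mmp19 at 131.9 against 79.9 to 91.3. Adamts10 was at 43.0 CPM in control 5, below the 52.2 to 55.2 of the others. Timp1 was at 15.5 CPM in knockout 1 against 6.33 to 7.70 in the other knockouts. Loxl3 was at 15.5 CPM in knockout 5, below 18.6 to 19.5, and Mmp27 at 5.91 CPM in knockout 4, above 2.43 to 3.29.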

How the results depend on the processing

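Adamts2, Timp4, Adamts9 and Adamts10 kept their calls with DESeq2, limma-voom, DESeq2 size factors, upper-quartile factors, both other low-count filters, robust dispersion and without control 5 and knockout 1 together, and lost them once the intronic-type score, which moves with the groups, entered the model. No paired analysis was possible because the labels give the groups no shared replicate numbers. Of all genes, 2053 passed (930 higher, 1123 lower). The numbers were 3605 (1702 and 1903) by limma-voom, 3774 (1769 and 2005) without control 5 and knockout 1, and 49 (11 and 38) with the intronic-type score. Leaving out 1 library gave 537 to 3094 (227 to 1386 higher, 310 to 1708 lower). Members called higher numbered 2 without control 5 and knockout 1 and 0 with the score, and members called lower 0 with the score. Leaving out 1 library gave 1 to 2 higher and 0 to 4 lower members. Their median log2 fold change ranged from -0.032 to 0.043, and that of Tcf7l2 from -0.92 to -0.84, called in all 10. Genes of the related lists called higher numbered 9 without control 5 and knockout 1 and 0 with the score, and those called lower 5 by limma-voom and 1 with the score, with 4 to 7 higher and 3 to 4 lower when 1 library was left out.

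Directions turned only in members that were not called. With the intronic-type score the log2 fold changes were 0.29 for Adamts12, -0.39 for Adamts15, -0.17 for Adamts3, 0.077 for Adamts4, 0.057 for Adamts7, -0.43 for Lox, -0.083 for Loxl1, -0.087 for Loxl2, 0.18 for Mmp11, 0.18 for Mmp17, -0.21 for Mmp19 and -0.017 for Mmp3. With no low-count filter they were 0.023 for Adamts4, 0.0088 for Adamts5, 0.021 for Adamts7 and 0.025 for Loxl3. DESeq2 size factors gave 9.0e-04 for Adamts4 and 0.0015 for Loxl3, DESeq2 gave 0.0018 for Loxl3, upper-quartile factors -0.0019 for Lox, and limma-voom 0.029 for Adamts5 and 0.030 for Loxl3. Without control 5 and knockout 1 Adamts5 was at 0.051 and Loxl3 at 0.035. When 1 library was left out, values ran from -0.11 to 0.029 for Adamts12, -0.031 to 0.83 for Adamts15, -0.23 to 0.16 for Adamts4, -0.061 to 0.053 for Adamts5, -0.097 to 0.071 for Adamts7, -0.052 to 0.14 for Lox, -0.025 to 0.054 for Loxl3, -0.022 to 0.22 for Mmp19, -0.033 to 0.069 for Mmp2 and -0.93 to 0.017 for Mmp9. The cause was not tested. Adamts17 was not tested at a CPM of at least 1 in 5 libraries. Depth limits the 14 untested members, whose counts did not exceed 16.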
